A study of Mus musculus with 6 samples.

Results

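Oxidative phosphorylation is carried out by 5 protein complexes of the inner mitochondrial membrane, and the nuclear genes that encode their subunits are described here in mouse bone marrow. Members were chosen by symbol alone, as names that begin with Nduf (complex I), Sdh (complex II), Uqcr (complex III), Cox followed by 4 to 8 (complex IV) or Atp5 (complex V) and hold no further separator. The rule found 85 genes among 47561 entries, of which 37 belong to complex I, 4 to complex II, 8 to complex III, 19 to complex IV and 17 to complex V. The rule reads names and not protein composition, so Ndufa4, whose product is now assigned to cytochrome c oxidase, counts under complex I. It leaves out Cyc1, Cycs, Ndufab1 and the ATPase inhibitor Atpif1.

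RNA was sequenced in 6 libraries of bone marrow cells, 3 from control mice and 3 from mice under chronic unpredictable mild stress (CUMS), a procedure of varied mild stressors used to model depression in rodents, applied for 4 weeks. Strain, sex and age are not given in the sources used here, nor whether a library came from 1 animal or from a pool, so the spread behind each p-value may be technical. A code in the file headers is 1 for replicate 1 of both groups and 2 for the other 4 libraries, and its meaning is not stated. No label or header names the unit, and the values were read as FPKM, fragments scaled by transcript length and by the mapped fragments of the library. On that reading levels of different genes can be set side by side, while the depth in counts is unknown.

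Complexes I to IV pass electrons from NADH or succinate to oxygen, and complexes I, III and IV pump protons as they do so. Complex V, the ATP synthase, lets protons flow back and makes ATP. The mitochondrial genome encodes a few core subunits of complexes I, III, IV and V, all other subunits are nuclear, and complex II is wholly nuclear. In marrow, mature neutrophils are known to rely largely on glycolysis, while erythroid precursors need mitochondria to make haem and lose them as they mature.

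Nuclear subunit genes are known targets of the transcription factors NRF1, GABP, the oestrogen-related receptors (ERR) and YY1. Promoter windows from RefSeq (GRCm38.p6), each reaching from 250 bases before to 50 bases after a gene start, were matched for 69 members with 74 windows. The 16 members without an entry included Atp5a1, Atp5mpl, Cox4i1, Cox4i2, Cox6a2, Cox6c, Cox6c2, Cox8c, Ndufa2, Ndufb9, Ndufs1, Sdhc, Uqcrb, Uqcrc2 and Uqcrq. Short core motifs were searched on both strands. GCGCATG for NRF1 occurred in 17.57% of member windows and in 3.91% of all 32851 windows. CCGGAAG for GABP occurred in 22.97% and 8.86%, AAGGTCA for ERR in 10.81% and 4.72%, and AAGATGG for YY1 in 14.86% and 6.34%. At least 1 of the 4 letter strings was found in 37 of 74 member windows (50.0%) against 21.58% of all windows. The windows of all genes were taken whatever their level in marrow, and base composition was not matched. A match is a description of letters and shows no binding.

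Of the sequences below, the upstream 250 bases of Cox6a1, Cox6b1 and Cox6b2 are shown because these genes form the isoform pairs whose values are set out further on, and those of Sdhb because its values divided by header code. Each runs 5′ to 3′ toward the gene start on the strand of the gene, with motif letters in capitals and all other bases in lower case.
Cox6a1, chr5:115348959-115349208, minus strand: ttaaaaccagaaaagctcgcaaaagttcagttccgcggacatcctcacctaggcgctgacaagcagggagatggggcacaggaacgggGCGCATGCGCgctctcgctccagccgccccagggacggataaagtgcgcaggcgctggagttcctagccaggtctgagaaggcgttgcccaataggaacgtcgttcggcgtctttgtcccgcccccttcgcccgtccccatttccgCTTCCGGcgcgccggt
Cox6b1, chr7:30626115-30626364, minus strand: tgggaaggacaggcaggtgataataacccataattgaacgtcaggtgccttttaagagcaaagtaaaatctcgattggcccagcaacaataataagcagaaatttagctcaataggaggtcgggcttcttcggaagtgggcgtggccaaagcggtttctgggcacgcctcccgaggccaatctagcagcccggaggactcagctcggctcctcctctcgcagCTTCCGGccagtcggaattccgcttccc
Cox6b2, chr7:4753095-4753344, minus strand: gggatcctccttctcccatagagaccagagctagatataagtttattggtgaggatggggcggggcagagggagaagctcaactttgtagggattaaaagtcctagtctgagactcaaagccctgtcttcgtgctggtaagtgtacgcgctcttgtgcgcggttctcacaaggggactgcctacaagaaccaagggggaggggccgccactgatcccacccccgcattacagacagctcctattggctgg
Sdhb, chr4:140961021-140961270, plus strand: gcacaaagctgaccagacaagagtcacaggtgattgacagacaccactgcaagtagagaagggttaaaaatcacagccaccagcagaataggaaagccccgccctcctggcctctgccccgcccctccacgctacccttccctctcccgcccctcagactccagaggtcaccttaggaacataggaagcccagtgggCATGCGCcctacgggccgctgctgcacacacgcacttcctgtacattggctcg

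In Cox6a1 the capitals GCGCATGCGC hold the NRF1 letters on both strands, overlapping each other and starting 162 bases before the gene start, and CTTCCGG is the GABP string on the opposite strand 16 bases before it. Cox6b1 held the GABP string 28 bases before its start and Sdhb the NRF1 string 53 bases before its start. The full window of Sdhb, which reaches 50 bases past the start, held the GABP string as well, outside the bases shown. The upstream bases of Cox6b2, the testis isoform, held none of the 4 strings, which says only that these letters are not in this window.

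Nearly all members were well above the floor. Testing needed 1 FPKM or more in 3 or more libraries, a filter that 80 of the 85 members and 12302 genes in all passed. All members of complexes I, II, III and V passed. The 5 that did not were the complex IV isoforms Cox4i2, Cox7a1, Cox7b2, Cox8b and Cox8c. The 85 members summed to between 6248 FPKM in control 2 and 8291 FPKM in control 1, or 1.11% to 1.26% of the summed FPKM of a library.

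The complexes kept 1 order of level in all 6 libraries. The median FPKM of the tested genes was lowest for complex I, at 41.6 to 51.5, followed by complex II at 51.6 to 59.7 and complex III at 60.7 to 80.2. Complex IV stood at 102 to 138 and complex V at 116 to 148. The ranges over libraries of complexes IV and V overlapped, and the other neighbours in this order did not, although single genes of complex I reached 149 FPKM and single genes of complex V went down to 50.2 FPKM. The ratio of the complex IV median to the complex I median was 2.39 to 2.69 in the control libraries and 2.43 to 2.90 in the CUMS libraries. That of complex V to complex I was 2.56 to 2.88 in control and 2.89 to 3.01 in CUMS, so the groups met without overlapping.

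Levels within a complex differed most in complex IV, where the mean over 6 libraries ran from 1.91 FPKM for Cox6c2, which RefSeq annotates as a pseudogene, to 340 FPKM for Cox6a1. The next lowest were the tissue isoforms Cox6a2 at 8.88 FPKM and Cox6b2 at 25.6 FPKM. In complex I it ran from 12.01 FPKM for the accessory subunit Ndufa11 to 149 FPKM for Ndufa4, which was followed by the accessory subunit Ndufa3 at 124 FPKM. Ndufa12, an accessory subunit of the peripheral arm, was second lowest at 12.9 FPKM. The span was narrower in complex III, from 38.9 FPKM for Uqcrq to 156 FPKM for the hinge protein gene Uqcrh, with Uqcr10 at 98.1 FPKM. In complex V it ran from 50.2 FPKM for Atp5g1 to 344 FPKM for Atp5b, the catalytic beta subunit. The 4 genes of complex II lay within 1.36-fold of each other, between 43.7 FPKM for Sdhc and 59.5 FPKM for Sdhd.

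CUMS and control were compared in a limma fit of log2(FPKM + 1) over all tested genes with group as the only term. At a Benjamini-Hochberg adjusted p under 0.05 the fit called 0 of 80 members, where 1.07% of all tested genes were called, so the members' count is near that of all genes. The replicate block called Cox6a2 and Cox6b2, and the header code as a term called Cox6a2, with values given under complex IV. An unadjusted p under 0.05 was reached by 2 members, Cox6a2 and Cox6b2, against 15.4% of all tested genes. Adjusted p-values of the members ran from 0.0933 to 0.997. The members split evenly, with 40 above 0 and 40 below, and their median log2 difference (CUMS minus control) was -0.0023, beside -0.0017 over all tested genes. In these bulk samples fewer cells of a type and less RNA per cell cannot be told apart.

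Intervals were fairly narrow. The 95% interval of the difference lay within 1.5-fold either way for 70 of 80 members, against 71.9% of all tested genes. This held for all members of complexes II, III and V, for 31 of 37 in complex I and for 10 of 14 in complex IV. The half-width of the interval was between 0.19 and 0.53 on the log2 scale with a median of 0.32, so differences of that size could not be told from 0. The estimate itself was under 0.2 in size for 70 members and under 0.3 for 78.

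**Figure D1:**
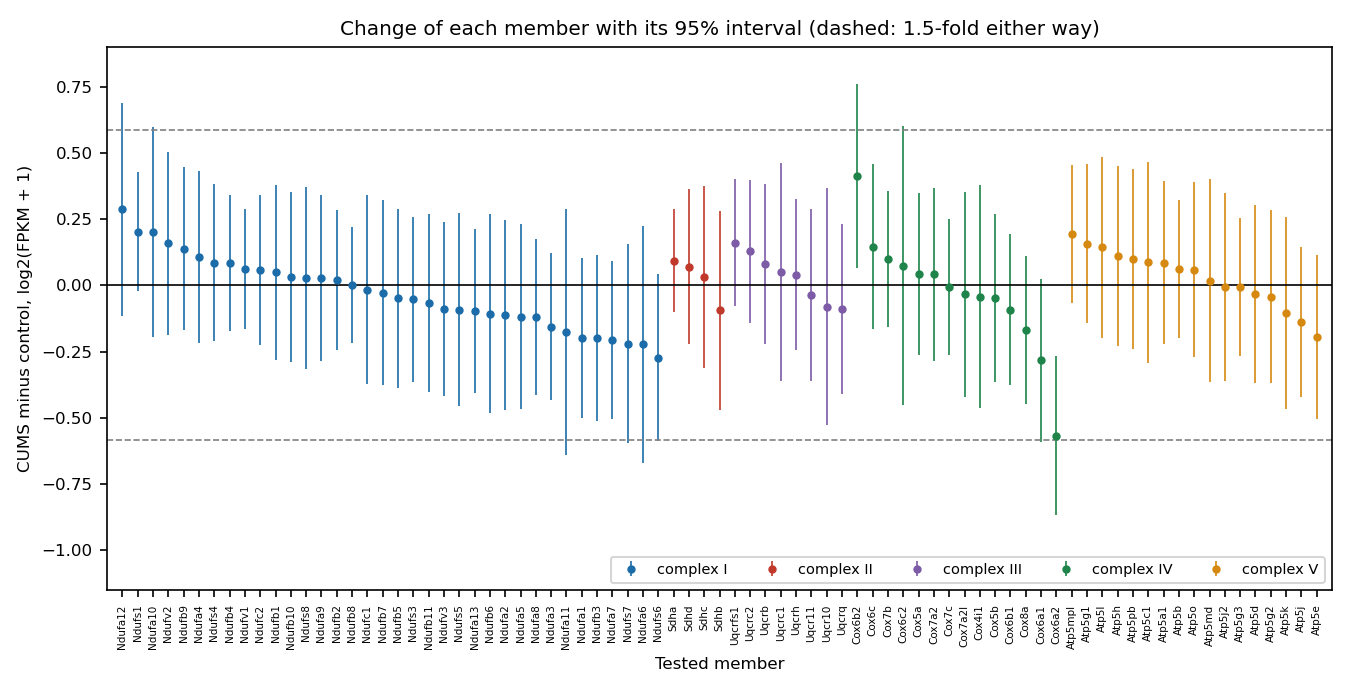
Each point is the difference of 1 tested member (79 of the 80 are drawn) between CUMS and control on log2(FPKM + 1), with its 95% limma interval, 3 libraries a group, colours marking the complex and dashed lines 1.5-fold either way. Cox6a2 (-0.57) and Cox6b2 (0.41) are the points whose intervals do not hold 0, and the other intervals do.

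No complex was tested as a list, and the complexes are set side by side as a description. The median log2 difference was -0.048 over the 37 members of complex I, 0.051 over complex II, 0.046 over complex III, -0.020 over the 14 tested members of complex IV and 0.060 over complex V. In complex I 16 members were above 0 and 21 below, in complex II 3 and 1, in complex III 5 and 3, in complex IV 6 and 8, and in complex V 10 and 7. Each median took the other sign when 1 library was left out. Without control 1 those of complexes I and IV were 0.066 and 0.15, without control 2 those of complexes III and V were -0.056 and -0.049, and without CUMS 1 that of complex II was -0.064.

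Among the nuclear subunits of complex I, those that take electrons from NADH and hand them to ubiquinone are core, and the others are accessory. Ndufs1, the largest iron-sulphur subunit, had 25.8, 24.2 and 21.5 FPKM in control and 27.7, 27.1 and 27.7 FPKM in CUMS. It was the only member with every CUMS library above every control library, against 10.0% of all tested genes (log2 difference 0.20, SE 0.10, limma adjusted p = 0.368). Of its 8086 exon bases, 489 overlap the non-coding gene Ino80dos and 9 the more abundant Eef1b2, both on the opposite strand.

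Ndufv1, which binds the flavin that oxidises NADH, had 45.6, 38.4 and 41.5 FPKM in control and 46.0, 41.6 and 43.3 FPKM in CUMS. The groups overlapped, with CUMS 1 and control 1 the highest libraries. The 7 core genes had a median difference of 0.028 and the 30 accessory genes one of -0.058.

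The accessory subunits of complex I with the smallest p-values lay on both sides of 0. Ndufs6, a zinc-binding subunit, had 67.1, 50.4 and 53.7 FPKM in control and 42.4, 53.2 and 45.2 FPKM in CUMS (-0.27, SE 0.14, limma adjusted p = 0.394). Ndufa12 had 11.6, 13.7 and 9.23 FPKM in control and 11.9, 13.6 and 17.3 FPKM in CUMS (0.29, SE 0.17, limma adjusted p = 0.488). For both genes the groups overlapped, and for Ndufa12 control 3 was lowest and CUMS 3 highest. Ndufa7, Ndufa1 and Ndufb3 differed by -0.21, -0.20 and -0.20 with limma adjusted p-values of 0.501, 0.528 and 0.545.

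Complex II, succinate dehydrogenase, joins the tricarboxylic acid cycle to the chain. Sdha, the flavoprotein subunit, was among the steadiest members, with 52.2, 50.0 and 51.6 FPKM in control and 52.1, 57.0 and 55.3 FPKM in CUMS. Sdhb, the iron-sulphur subunit, had 76.8, 53.2 and 52.5 FPKM in control and 63.1, 52.2 and 53.3 FPKM in CUMS. Replicate 1 of both groups stood above the other 4 libraries, which lay within about 1 FPKM of each other. The membrane anchors Sdhc and Sdhd had differences of 0.031 and 0.070, and replicate 1 of each group was highest for both.

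In complex III, which passes electrons from ubiquinol to cytochrome c, Uqcrfs1, the Rieske iron-sulphur protein, had 67.3, 55.7 and 56.7 FPKM in control and 69.8, 67.4 and 63.6 FPKM in CUMS (0.16, SE 0.10, limma adjusted p = 0.517). The groups overlapped through control 1. The core proteins Uqcrc1 and Uqcrc2 differed by 0.052 and 0.13, with limma adjusted p-values of 0.927 and 0.658. Uqcrc1 reached 93.1 and 99.9 FPKM in replicate 1 of the 2 groups and 65.6 to 73.8 FPKM in the other 4 libraries.

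In complex V, Atp5a1 and Atp5b encode the alpha and beta subunits of the catalytic head. Atp5b had 371, 308 and 331 FPKM in control and 380, 335 and 337 FPKM in CUMS, a difference of 0.061 (SE 0.11, limma adjusted p = 0.853). Atp5a1 had 219, 171 and 179 FPKM in control and 226, 182 and 195 FPKM in CUMS. Both genes were somewhat higher in the CUMS library of each replicate number, by less than the spread within a group. The 5 genes of the head and central stalk had a median difference of 0.062, and the other 12 genes of complex V one of 0.039.

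The complex V members with the smallest p-values were Atp5mpl, a small proteolipid of the membrane part, and Atp5e, the epsilon subunit of the central stalk. Atp5mpl had 110, 91.7 and 96.3 FPKM in control and 104, 126 and 112 FPKM in CUMS (0.19, SE 0.11, limma adjusted p = 0.468). Atp5e had 247, 181 and 209 FPKM in control and 195, 191 and 167 FPKM in CUMS (-0.19, SE 0.13, limma adjusted p = 0.549). The groups overlapped for both. Atp5h, the d subunit of the peripheral stalk and second in level at 201 FPKM, differed by 0.11, and Atp5j, coupling factor 6, by -0.14.

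Complex IV is the complex with the most tissue isoforms, and it held the 3 members with the smallest p-values, Cox6a2, Cox6b2 and Cox6a1. In each pair of a ubiquitous and a tissue isoform the ubiquitous gene made up most of the signal. Cox4i1 had 331, 214 and 240 FPKM in control and 294, 229 and 231 FPKM in CUMS, while Cox4i2, the isoform known from lung and low oxygen, had 0.11 to 0.35 FPKM, or 0.045% to 0.152% of the pair. Cox8a had 234 to 312 FPKM, while the muscle isoform Cox8b was listed at 0 in 5 libraries and at 0.726 FPKM in CUMS 3, and the testis isoform Cox8c was listed at 0 in all 6. Cox7b had 48.6 to 62.5 FPKM, and its testis paralogue Cox7b2 was listed at 0 throughout.

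Cox7a2 had 63.1 to 91.2 FPKM and Cox7a2l, a relative that takes part in supercomplex assembly, 77.1 to 120 FPKM. The heart and muscle isoform Cox7a1 had 0.309, 0.427 and 0.287 FPKM in control, was listed at 0 in CUMS 1 and had 1.25 and 1.28 FPKM in CUMS 2 and 3. It lay just outside the filter, and Cox6c2, at 1.22 to 2.69 FPKM, just inside.

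**Figure D2:**
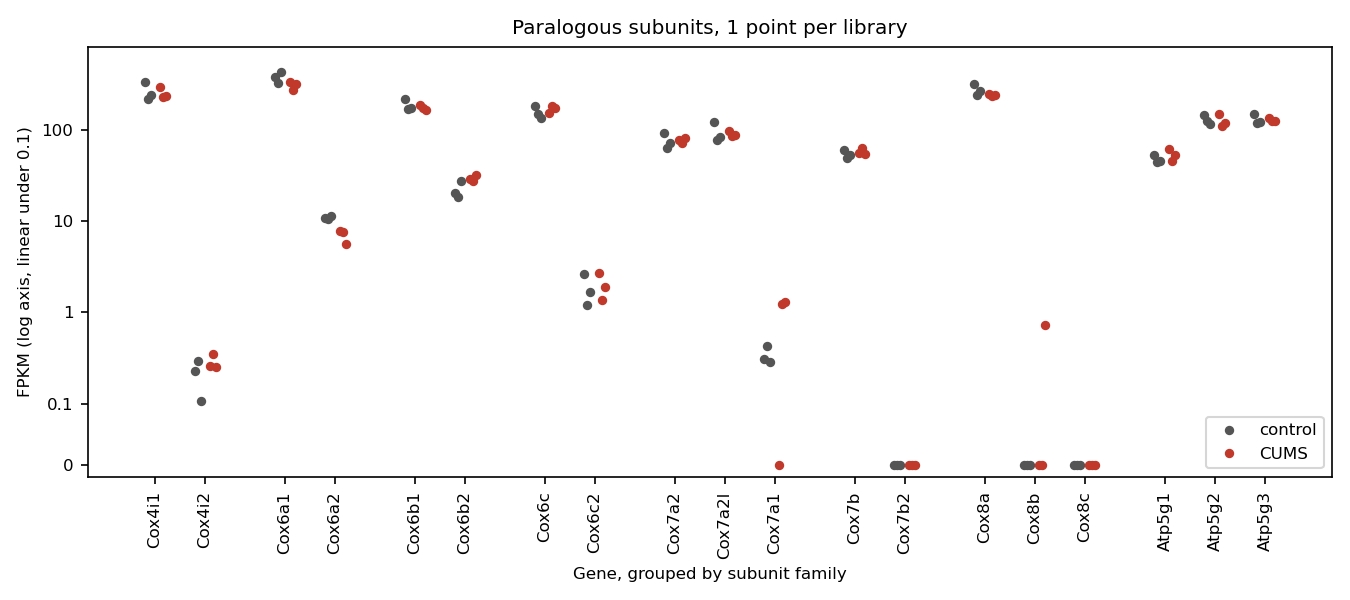
FPKM of paralogous subunit genes on a log axis that is linear under 0.1, grouped by family, with 1 point per library in grey for control and red for CUMS. The ubiquitous genes lie well above their tissue isoforms, and Cox6a2 is the 1 gene shown whose CUMS points (5.61 to 7.75) all lie below its control points (10.5 to 11.2).

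Cox6a2, the heart and skeletal muscle isoform of subunit VIa (chromosome 7, 128205435 to 128206366, GRCm38), had 10.6, 10.5 and 11.2 FPKM in control and 7.75, 7.65 and 5.61 FPKM in CUMS. Every CUMS library was below every control library, which no other member showed and which 12.1% of all tested genes did. The log2 difference was -0.57 (SE 0.13, 95% interval -0.87 to -0.27), with a limma adjusted p of 0.0933. With the header code as a term the limma adjusted p was 0.0171, and 1 of 80 members was called, against 13.4% of all tested genes. With the replicate number as a block it was 0.0327.

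Measures that bear on Cox6a2 were read beside it. Of 8 skeletal muscle markers, 2 passed the filter, Mylpf (0.38) and Tnni2 (-0.35), and neither was called. The 8 genes summed to 11.52, 7.18 and 7.72 FPKM in control and 10.14, 7.71 and 8.44 FPKM in CUMS. Below the filter, Ckm was under 1 FPKM throughout and lower in every CUMS library (0.957, 0.673 and 0.80 FPKM against 0.528, 0.337 and 0.471 FPKM), and Acta1 was higher in every CUMS library (0.878, 0.939 and 0.811 FPKM against 1.37, 1.40 and 0.994 FPKM). The myosin genes Myh1 and Myh4 stayed at or under 0.034 FPKM. The part of muscle RNA in the value of Cox6a2 was not tested. Cox6a2 is also known from plasmacytoid dendritic cells. Of 5 markers of these cells, a list added after the value of Cox6a2 was seen, 0 were called by limma and 0 had an unadjusted p under 0.05, and their sum was 29.2 to 30.1 FPKM in control and 28.4 to 31.2 FPKM in CUMS. Siglech, the most abundant of them, had 18.6, 18.5 and 19.2 FPKM in control and 18.0, 19.0 and 18.1 FPKM in CUMS.

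An exon of Itgad, an integrin gene on the opposite strand, covers 70 of the 680 exon bases of Cox6a2. Itgad had 3.39, 3.62 and 3.28 FPKM in control and 2.77, 2.92 and 3.14 FPKM in CUMS (-0.17, SE 0.10, limma adjusted p = 0.50). The groups did not overlap for Itgad either, at a lower level than Cox6a2. Whether strand was used in counting is not given in the sources used here, so reads of the shared bases cannot be assigned to 1 of the genes, and their part in the result was not tested.

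The ubiquitous partner Cox6a1 (chromosome 5, 115345652 to 115348958) had 373, 325 and 425 FPKM in control and 331, 274 and 314 FPKM in CUMS. The groups overlapped in the range of 325 to 331 FPKM only (-0.28, SE 0.13, limma adjusted p = 0.359). Cox6a2 made up 2.77%, 3.12% and 2.57% of the summed pair in control and 2.29%, 2.72% and 1.75% in CUMS, so the shares overlapped where the level of Cox6a2 did not.

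Cox6b2, the testis isoform of subunit VIb (chromosome 7, 4751792 to 4753094), had 20.03, 18.4 and 27.3 FPKM in control and 29.1, 27.0 and 31.5 FPKM in CUMS. Control 3 reached into the CUMS range, and the log2 difference was 0.41 (SE 0.15, limma adjusted p = 0.251). With the replicate number as a block, a pairing that no source states, the limma adjusted p was 0.0398. That fit called 2 of 80 members, Cox6a2 lower and Cox6b2 higher, against 7.80% of all tested genes, and with the header code as a term Cox6b2 was not called (limma adjusted p = 0.0779). Cox6b1, its ubiquitous partner (chromosome 7, 30616971 to 30626114), had 218, 168 and 171 FPKM in control and 183, 171 and 165 FPKM in CUMS. Cox6b2 thus made up 8.43%, 9.89% and 13.8% of the pair in control and 13.7%, 13.7% and 16.0% in CUMS.

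The c ring of the ATP synthase is built from 3 genes with the same mature protein. Atp5g2 and Atp5g3 contributed about equally, with 39.3% to 43.1% and 39.3% to 44.6% of the summed FPKM of the 3 genes. Atp5g1 contributed 15.1%, 15.5% and 16.1% in control and 17.8%, 16.2% and 18.0% in CUMS. The highest control share (16.11%) lay just under the lowest CUMS share (16.16%), while the levels of Atp5g1 overlapped (0.16, SE 0.13, limma adjusted p = 0.625). Related copies and processed pseudogenes can share reads with these genes, and how such reads were counted is not given in the sources used here.

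More members differed by header code than between CUMS and control. In the fit with group and header code, a contrast added after the data were seen, 35 of 80 members were lower in the libraries of code 2 than in those of code 1, against 12.7% of all tested genes. No member was higher, against 17.7% of all tested genes. Both libraries of code 1 lay above all 4 of code 2 for 38 members, against 18.1% of all tested genes. The difference of code 2 from code 1 was below 0 for 72 of the 80, with a median of -0.23 beside -0.0093 over all tested genes, and ran from -0.54 to -0.20 among the 35.

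**Figure D3:**
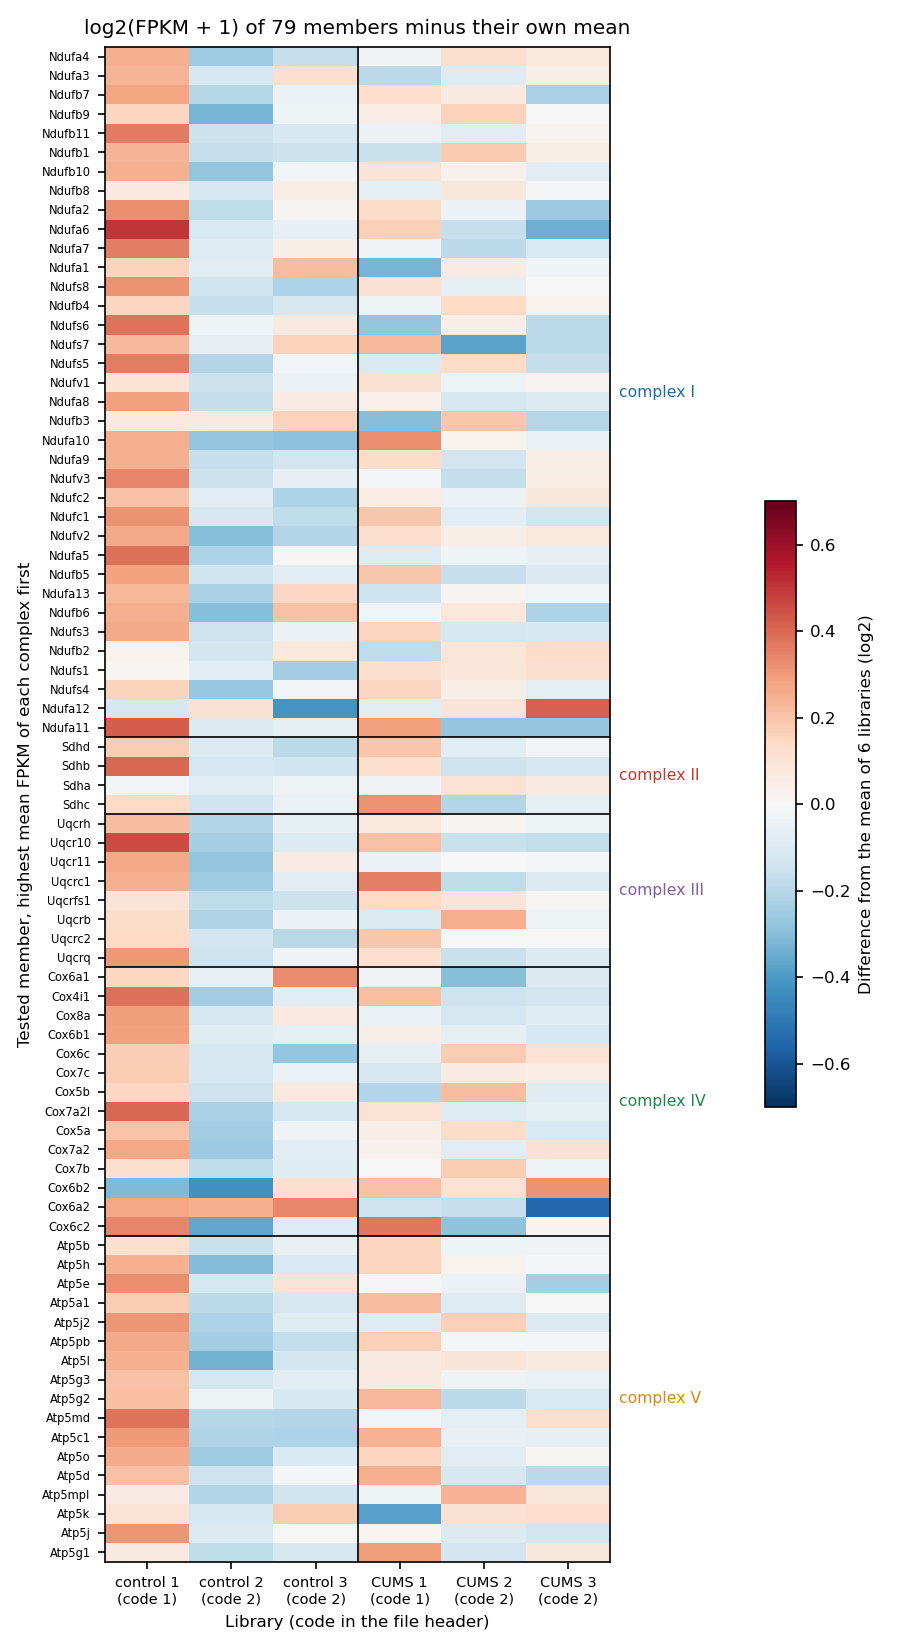
Each row is a tested member (79 of the 80 are drawn) and each column a library, and colour gives log2(FPKM + 1) minus the mean of that member over the 6 libraries, grouped by complex. Control 1 is the highest library for 50 of 80 members (62.5%, against 26.5% of all tested genes). Control 2 is the lowest for 42 (52.5%, against 18.2%). On average 40 members are higher and 40 lower in CUMS than in control.

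The members lower in code 2 were 13 of 37 in complex I, 3 of 4 in complex II, 4 of 8 in complex III, 4 of 14 in complex IV and 11 of 17 in complex V. Sdhb differed by -0.39 (SE 0.08, limma adjusted p = 0.00822) and Uqcrc1 by -0.45 (SE 0.07, limma adjusted p = 0.00363). Cox4i1 had 331 and 294 FPKM in code 1 and 214 to 240 FPKM in code 2, a difference of -0.45 (SE 0.08, limma adjusted p = 0.00460). Atp5c1, the gamma subunit that turns inside the head, had 136 and 130 FPKM in code 1 and 94.6 to 106 FPKM in code 2 (-0.41, SE 0.07, limma adjusted p = 0.00469). Sdha (0.035, limma adjusted p = 0.714) and Atp5mpl (-0.020, limma adjusted p = 0.891) were not called.

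Scaling and the libraries themselves bore on the count. With each library scaled to the same summed FPKM, 10 of 80 members were lower and 5 higher in code 2. Under that scaling 378 of all 12302 tested genes were lower and 3584 higher. The medians were -0.070 over the members and 0.13 over all tested genes. Against 35 with all libraries, the count of members lower in code 2 was 21 without control 2 and 20 without control 3. Over all tested genes that count was 1565 with all libraries, 944 without control 2 and 1034 without control 3. Leaving out control 1 or CUMS 1 leaves 1 library of code 1, so only medians are given for these. Without control 1 the median difference of code 2 from code 1 was -0.11 over the members and 0.022 over all tested genes. Without CUMS 1 these medians were -0.35 and -0.0265. Genes of other protein machines moved with the code in the same direction, with 37 of 75 mitochondrial and 37 of 75 cytosolic ribosomal protein genes lower in code 2 (medians -0.27 and -0.28).

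Within the header codes the direction of CUMS against control differed. In the pair of libraries of code 1 the median log2 difference of the members was -0.17, with no replicate behind it. In the 4 libraries of code 2 it was 0.097. Over all tested genes these 2 medians were -0.0203 and 0.005. They were -0.0765 and 0.0774 for the mitochondrial ribosomal protein genes, and -0.0927 and 0.1902 for the cytosolic ones. A fit on the 4 libraries of code 2 called 10 of 80 members (12.5%), against 17.7% of all tested genes. Over all 12302 tested genes it called 1085 higher in CUMS and 1088 lower. The 9 members called higher, by 0.20 to 0.34, were Atp5l, Atp5mpl, Atp5pb, Cox6c, Ndufa10, Ndufa4, Ndufb1, Ndufv2 and Uqcrfs1. The other was Cox6a2 (-0.64, limma adjusted p = 0.0180). Of these 9, 7 were lower in CUMS in the pair of code 1, and in the fit on all 6 libraries their limma adjusted p-values were 0.468 to 0.914.

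Subunit transcripts of the mitochondrial genome were set beside the nuclear ones, and the difference between the 2 sets was not tested. The 13 mitochondrial mRNAs summed to 23490, 25030 and 23550 FPKM in control and to 15370, 18790 and 18140 FPKM in CUMS, or 72.6% of the control mean, where the nuclear members stood at 98.4%. The fit with group as the only term called 0 of the 13 (10 at an unadjusted p under 0.05), and that with the header code as a term called 12 as lower in CUMS, against 13.4% of all tested genes in either direction. With the replicate block 10 of these were called, against 7.80%. Their median log2 difference was -0.46, at -0.58 in the pair of code 1 and -0.42 in the libraries of code 2.

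**Figure D4:**
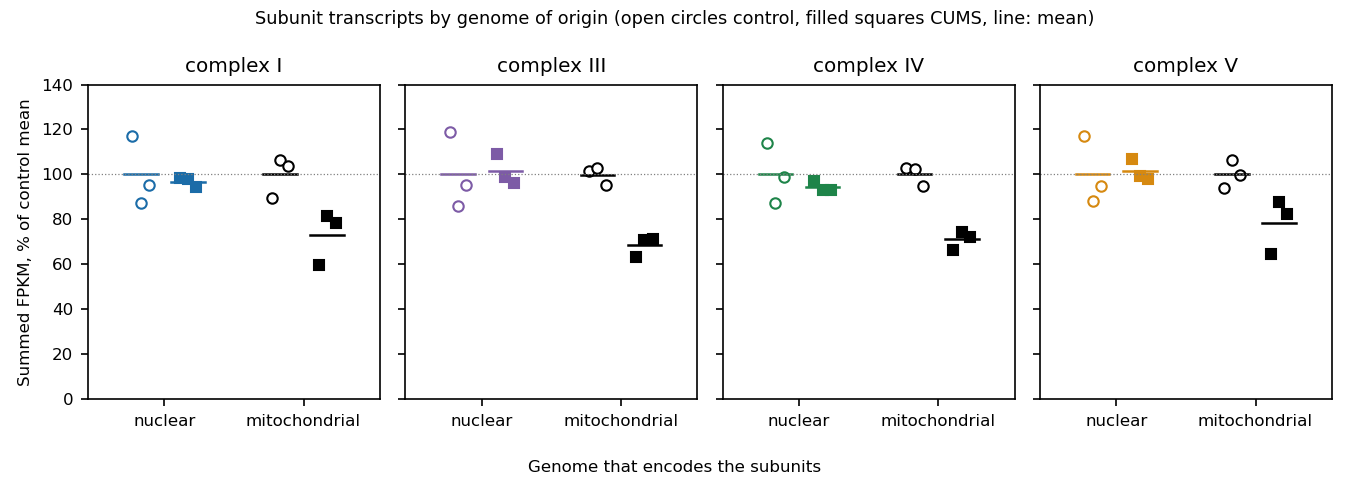
Summed FPKM of the nuclear members (colour) and of the mitochondrial mRNAs (black) of each complex that has both, as a percentage of the mean of the 3 control libraries, with 1 point per library and a line at the group mean. Mitochondrial sums of CUMS libraries lie between 59.8% and 87.8%, below all control libraries of the same complex, while nuclear sums of CUMS libraries lie between 93.1% and 108.9% and within the control range.

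By complex, the CUMS mean was 96.9% of the control mean for the nuclear and 73.2% for the mitochondrial transcripts of complex I. It was 101.4% and 68.5% for complex III, 94.5% and 71.1% for complex IV, and 101.5% and 78.2% for complex V. For the single mitochondrial gene of complex III, CYTB, the values were 2306, 2329 and 2166 FPKM in control and 1433, 1602 and 1622 FPKM in CUMS (-0.55, SE 0.12, limma adjusted p = 0.0824, or 0.00404 with the header code as a term and 0.0167 with the replicate block). Nuclear transcripts summed to 35.3%, 25.0% and 29.1% of the mitochondrial sum in control and to 47.5%, 36.9% and 37.5% in CUMS. Each CUMS library lay above every control library in that ratio. The mitochondrial mRNAs also went the other way with the header code. Of the 13, 6 were higher in code 2 and 0 lower, against 17.7% and 12.7% of all tested genes.

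Genes that serve the same complexes were listed by function. Of 14 assembly factors of complex I, 4 of complex II, 5 tested of complex III, 17 tested of complex IV and 3 of complex V, 0 were called in the fit with group as the only term (2 at an unadjusted p under 0.05). With the header code as a term and with the block, Uqcc3, an assembly factor of complex III, was lower (20.5, 14.5 and 15.3 FPKM in control and 12.4, 11.2 and 11.1 FPKM in CUMS), and so was Cox14, one of complex IV. These were the only assembly factors called in either fit, where 13.4% and 7.80% of all tested genes were called. For complex IV 14 of 17 assembly factors were below 0, with a median of -0.15. Outside the name rule, Cyc1, Cycs and Ndufab1 differed by 0.055, 0.051 and 0.16, and Atpif1 by 0.11, none of them called.

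Among 12 tested regulators of mitochondrial gene expression 0 were called in the fit with group as the only term (2 at an unadjusted p under 0.05, Esrra and Tfb1m), with 8 above 0, 4 below and a median of 0.072. Esrra, which encodes oestrogen-related receptor alpha, had 15.3, 20.4 and 17.5 FPKM in control and 10.4, 14.6 and 12.2 FPKM in CUMS (-0.49, SE 0.15). Every CUMS library of Esrra was below every control library, as for 12.1% of all tested genes. Its limma adjusted p was 0.180, or 0.0132 with the header code as a term and 0.0137 with the block. In the other direction, Tfb2m, a mitochondrial transcription factor gene, had 4.91, 4.46 and 4.07 FPKM in control and 4.92, 5.56 and 5.51 FPKM in CUMS (0.21, SE 0.11, limma adjusted p = 0.410). Its groups were apart only by 4.91 against 4.92 FPKM, and 10.0% of all tested genes were apart in that direction. Tfb1m, a relative of Tfb2m, differed by 0.40 (SE 0.16, limma adjusted p = 0.297). Nrf1, Gabpa and Yy1 differed by 0.054, -0.021 and -0.051, and the coactivator gene Ppargc1a stayed at or under 0.093 FPKM.

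Other mitochondrial lists were read in the same way. Of 17 genes of the tricarboxylic acid cycle and pyruvate dehydrogenase, 15 were above 0 with a median of 0.098, and of 17 genes of import, porins and carriers all were above 0 with a median of 0.090. No gene of either list was called with group as the only term, and 2 of each had an unadjusted p under 0.05, against 15.4% of all tested genes. With the header code as a term and with the block, 2 of each list were called, against 13.4% and 7.80% of all tested genes, namely Idh3a and Suclg2 of the cycle and the chaperones Hspa9 and Hspd1, all higher in CUMS. The median of the 75 mitochondrial ribosomal protein genes was 0.025.

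Markers of the cell types in marrow were read beside these values. Erythroid markers, at 165369 to 234845 FPKM in sum, and neutrophil markers, at 51574 to 71278 FPKM, had the highest sums of the marker lists. Of 12 erythroid markers 0 were called (1 at an unadjusted p under 0.05) and 12 were above 0 (median 0.18), and of 14 neutrophil markers 0 were called (1 at an unadjusted p under 0.05) and 10 were below 0 (median -0.10). In the same fit, which called 1.07% of all tested genes, 3 of 7 eosinophil, basophil and mast cell markers were higher in CUMS. Of the others, 2 of 11 monocyte and macrophage markers were lower and 1 of 6 stroma markers higher. With the header code as a term, which called 13.4% of all tested genes, 7 of the 11 monocyte and macrophage markers were lower. As many were lower with the block, which called 7.80%. With the code term 4 of 7 eosinophil, basophil and mast cell markers and 3 of 6 stroma markers were higher (3 and 3 with the block). That term also called 1 erythroid marker higher (0 with the block). Of the neutrophil markers it called 1 higher and 1 lower (0 and 1 with the block). Of 8 B lineage markers 6 were below 0 (median -0.18), and 0 were called with group as the only term (3 at an unadjusted p under 0.05). Of these markers 4 were lower with the header code as a term and 2 with the block. All 8 markers of dividing cells were above 0 (median 0.20), and 0 were called with group as the only term (1 at an unadjusted p under 0.05). Of these 8, 2 were higher with the header code as a term and 1 with the block. The part of these lists in the values of the members was not tested.

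The members lie on 19 chromosomes, 3 of them on the X chromosome. Their exons were short, with a median merged length of 1569 bp over 77 members against 4042 bp over 11689 tested genes (GENCODE annotation of GRCm38). Exon bases were shared with another gene for 27 members, on the opposite strand for 24 of these. The largest shared part was 39.0% in Ndufb6 (with Smim27) and 30.0% in Ndufa13 (with Tssk6), both on the opposite strand. The part of shared reads in the values of the members was not tested.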

How the data were processed

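RNA from 6 bone marrow samples (control 1 to 3, CUMS 1 to 3; replicate numbers from the titles) was sequenced by the authors as paired reads. The build mm10 and HISAT2 2.1 are named in the submitters' processing notes, beside featureCounts 1.6.4, DESeq2 2.11.40.6, cutadapt 1.16.5 and bcl2fastq 2.19, without saying which step made which value. The deposited values were read as FPKM from the values themselves, since no label or header names the unit, and counts and depth are unknown. They were used without further scaling in limma 3.58.1 (R 4.3.3): log2(FPKM + 1), genes with at least 1 FPKM in 3 of 6 libraries, trend, Benjamini-Hochberg over 12302 genes, threshold 0.05. Log2 changes understate those of low genes. Tables and plots used Python 3.11.15, pandas 2.3.3, numpy 2.4.6 and matplotlib 3.10.9.

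Members and lists were chosen with earlier results of these data known. Values are given for members with the 12 smallest p-values, the 2 highest and 2 lowest of each complex, the isoform families and a fixed set of core subunits. Others were named after their values were seen. Same-numbered libraries deviated together from their group means (Pearson r over all tested genes 0.689, 0.452 and 0.363), as did replicates 2 and 3 when crossed (0.459 and 0.362). These values set replicate 1 of both groups, which shares header code 1, apart from the others. They do not tell a pairing of replicates 2 and 3 by number from the crossed one. Over the members, r for replicates 2 and 3 was 0.047 and 0.07 when matched and 0.29 and 0.283 when crossed. No source says that the numbers pair the samples, so the replicate block is an alternative fit and not a known pairing. Alternatives were the replicate block, the header code as a term or its code 2 alone, each library left out, another pseudocount (0.1), no filter and 3 scalings. Of the tested members 1 is not reported here by name and is left out of the plots, though it stays in the counts.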

Additional observations from a re-analysis of the deposited data

How the results depend on the processing

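No member was called under another pseudocount, no filter, the 3 scalings or with any library left out, and no call of another named member changed with the replicate block. Members called higher and lower in CUMS were 1 and 1 with the replicate block (429 and 530 of all tested genes). They were 0 and 1 with the header code as a term (746 and 899). In the libraries of code 2 alone they were 9 and 1 (1085 and 1088). Leaving out each library gave a median log2 difference from -0.1295 to 0.066 for complex I and from -0.064 to 0.1071 for complex II. The members lower in code 2 than in code 1 (35) numbered 17 without a filter, 10 with the same summed FPKM, 13 with the same sum without haemoglobin genes and 13 with quantile normalization, and 13 to 51 with 1 library left out. Members higher in code 2 (0, and 2182 of all tested genes) numbered 5 with the same sum (3584). They numbered 1 with that sum without haemoglobin genes (2963), and 0 with 1 library of code 2 left out (1634 to 1803). The cause was not tested. Of 40 named members tested, 9 changed sign without control 1, 7 without control 2 and fewer under each other alternative, none of them called. With 3 libraries a group and depth unknown, differences under about 0.32 on the log2 scale were not resolved for a typical member.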
